A study of Mus musculus with 12 samples.

Results

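Transcripts of 9 histone acetyltransferase genes other than Kat7 were followed in thymic epithelial cells (TECs) in which KAT7 was deleted or inhibited. The genes were taken by symbol: the MYST family members Kat5, Kat6a, Kat6b and Kat8, the GCN5/PCAF pair Kat2a and Kat2b, the p300/CBP pair Ep300 and Crebbp, and Hat1. They are 9 of the 25867 genes with a symbol, and all 9 passed the filter on low counts. The question was whether the other enzymes are transcribed at another level where KAT7 is lost or blocked.

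RNA was sequenced from sorted TECs of fetal thymic organ cultures of C57BL/6 mice, with 3 libraries described as biological replicates in each of 4 groups. The knockout cultures carried RosaCre-ERT2 and floxed Kat7 alleles (Kat7fl/fl) and received tamoxifen, which activates the Cre recombinase. Their controls also received tamoxifen, and their genotype is given as control in the sample labels and as wt in the names of their count columns, with no word on Cre or floxed alleles. The inhibitor cultures were wild type and received WM-3835, an inhibitor of KAT7 whose name is spelled WM-3825 in the sample titles; their references were wild type with the solvent DMSO. No dose or duration of WM-3835 is given. All lobes came from E15.5 embryos and were kept with 1.35 mM 2'-deoxyguanosine for 4 to 5 days to remove thymocytes, after which an agonist anti-RANK antibody was added at 10 µg/mL for 3 days. Cre from the Rosa locus acts in all cells of the lobe, not in TECs alone, and the lobes had been depleted of thymocytes.

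Histone acetyltransferases move the acetyl group of acetyl-CoA onto lysines of histone tails, which loosens chromatin and creates docking sites for reader proteins. MYST enzymes work inside multi-subunit complexes, and KAT6A, KAT6B and KAT7 can share the same BRPF scaffolds, with ING5 and MEAF6. GCN5 and PCAF replace each other in the SAGA and ATAC complexes, p300 and CBP act at enhancers, and HAT1 acetylates newly made histone H4 before it is put into chromatin. In medullary TECs, KAT7 and CBP are known as partners of AIRE, the regulator that lets these cells transcribe genes of other tissues.

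Total counts ran from 26656847 to 52368012 per library. All 9 TEC markers examined, among them Epcam, Foxn1 and Krt8, were above 1 CPM (the read count relative to library size, scaled by TMM) in every library. Fibroblast markers summed to 45.1 to 53.4 CPM in knockout libraries and 108 to 153 CPM in control libraries, and to 42.6 to 53.2 CPM with WM-3835 and 52.8 to 67.7 CPM with DMSO. The 6 markers of macrophages and dendritic cells summed to 43.7 to 61.9 CPM in knockout and 53.8 to 105.6 CPM in control libraries. They summed to 40.8 to 49.6 CPM with WM-3835 and 39.4 to 56.3 CPM with DMSO. In the knockout 1 of them was called higher and 1 lower, and with WM-3835 1 was called higher. Of the 8 thymocyte markers, Cd3e, Cd3g, Cd8a, Dntt and Themis were at 0 in some libraries, and the 8 summed to 10.7 to 16.0 CPM in knockout, 8.63 to 14.7 CPM in control, 12.8 to 16.8 CPM in WM-3835 and 11.7 to 12.4 CPM in DMSO libraries. Xist, the RNA of the inactive X chromosome, stood at 1709, 1191 and 4.94 CPM in knockout libraries 1 to 3, at 2.34 to 3.17 CPM in controls, and at 846 to 2118 CPM in both wild-type groups. Libraries 1 and 2 of the knockout thus differ from the controls in Xist as well as in Kat7, while knockout library 3 is near them. None of the 9 genes lies on the X chromosome.

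In control cultures Kat2a, the gene of GCN5, had the highest level per length of the 9 genes, and Kat6b the lowest. Levels between genes are given here in TPM (a transcript share per length, from the deposited gene lengths). Kat2a stood at 105.5 ± 0.448 TPM (mean ± SD, n = 3), Kat5 at 64.5 ± 5.69 TPM, Kat8 at 54.7 ± 4.91 TPM and Ep300 at 52.0 ± 0.313 TPM. Kat2b followed at 46.9 ± 5.27 TPM, Kat6a at 44.6 ± 3.94 TPM and Hat1 at 37.5 ± 5.25 TPM. Crebbp and Kat6b closed the order at 26.6 ± 3.07 TPM and 22.5 ± 0.596 TPM, below Kat7 itself at 31.9 ± 2.57 TPM. Neighbours in this order often overlapped in their libraries: Kat8 with Ep300, Ep300 with Kat2b, Kat2b with Kat6a, Hat1 with Kat7, and Crebbp with Kat6b. Kat2a and Kat5 held the first places in all 4 groups. Hat1 stood above Kat8, Kat2b and Kat6a with WM-3835, at 57.6 ± 0.797 TPM, and below Kat8 and Kat6a with DMSO, at 41.3 ± 1.68 TPM. Its libraries overlapped those of Kat8 and Kat2b with WM-3835 and those of Kat6a with DMSO. Kat6b stood above Crebbp in the knockout and with WM-3835, and below it in control and DMSO cultures, with overlapping libraries in every group but WM-3835.

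Promoter sequences from RefSeq (GRCm38.p6) are shown for Kat6b and Kat2b, since their transcripts carry the comparisons that follow, and because the pair differs in base composition. That difference was part of the choice and is not a result. Each is the 250 bases before a transcription start, on the plus strand, at chr14:21499520-21499769 for Kat6b and chr17:53566721-53566970 for Kat2b. Capitals mark matches, on either strand and counted with overlaps, to any of 5 motifs: the GC box, spelled GGGCGG, the core of sites for ETS family factors, spelled CCGGAA, the box with the letters CCAAT, the TATA box, searched for as TATAAA, and the E-box with the letters CACGTG.
Kat6b: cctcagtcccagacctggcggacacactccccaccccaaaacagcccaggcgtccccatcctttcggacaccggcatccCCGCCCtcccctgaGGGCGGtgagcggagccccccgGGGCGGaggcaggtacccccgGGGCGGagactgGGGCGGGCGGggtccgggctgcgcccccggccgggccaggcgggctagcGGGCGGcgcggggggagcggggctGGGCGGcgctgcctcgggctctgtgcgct
Kat2b: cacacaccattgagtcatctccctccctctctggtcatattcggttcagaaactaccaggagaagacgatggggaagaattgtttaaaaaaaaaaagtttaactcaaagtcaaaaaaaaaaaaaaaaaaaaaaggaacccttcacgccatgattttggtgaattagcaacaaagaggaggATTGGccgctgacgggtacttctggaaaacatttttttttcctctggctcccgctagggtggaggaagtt
The Kat6b window held 8 GC boxes, 78.8% G and C, and 27 CpG dinucleotides. The Kat2b window held no GC box and 1 CCAAT match, with 40.8% G and C and 6 CpG dinucleotides. Among 32851 mouse promoters of the same length the medians were 52.4% G and C and 6 CpG dinucleotides, 32.7% held a GC box and 33.9% a CCAAT match. The Kat6b window contains no exon of GENCODE vM21, and the Kat2b window contains 1, from 53566861 to 53566915, of a non-coding Kat2b transcript. Both printed windows overlap the gene spans given below. Kat6b and Kat2b each have a second start. For Kat6b the window before it, at chr14:21499535-21499784, is largely the printed one, with 79.6% G and C and the same 8 GC boxes. For Kat2b that window, at chr17:53583876-53584125, lies apart from the printed one and held 48.4% G and C, no GC box and no CCAAT match. Promoters were found for 8 of the 9 genes. Among genes called in neither main comparison, G and C made up 84% for Crebbp, 73.2% for Ep300, and 71.6% and 55.2% in the Kat5 windows. They made up 48.8% for Kat2a and 51.2% in each Kat8 window. High G and C was thus not particular to Kat6b. The Hat1 window (chr2:71389010-71389259, plus strand), which lies inside an exon of the Hat1-202 transcript, held 1 GC box, 1 ETS core, 1 CCAAT match and 1 E-box. An ETS core is in 12.03% of all promoters, an E-box in 6.02% and TATAAA in 12.4%.

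The knockout comparison asks whether loss of Kat7 comes with another level of its relatives. Of the 9 acetyltransferase genes, 1 was higher in knockout TECs, Kat6b, and none was lower by edgeR, DESeq2 or limma-voom, nor at an unadjusted p under 0.05. Kat6b rose 1.24-fold, while Kat7 transcripts were almost gone. The other 8 genes were within 1.11-fold of control in their estimates. Across all 18670 genes tested, 14.2% were called in either direction, 6.12% higher and 8.06% lower. Among genes as abundant as these 9 the share called higher was 10.9%, and 1 of 9 is near that share.

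Kat7 (Entrez ID 217127, chromosome 11, 95271853 to 95310246 on mm10) stood at 0.606, 0.810 and 0.869 CPM in knockout libraries and 89.0, 76.5 and 76.0 CPM in control libraries. Every knockout library was far below every control, with 22 to 25 counts left, a log2 fold change of -6.74 (SE 0.13, adjusted p = 1.31e-16, edgeR's quasi-likelihood test).

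**Figure D1:**
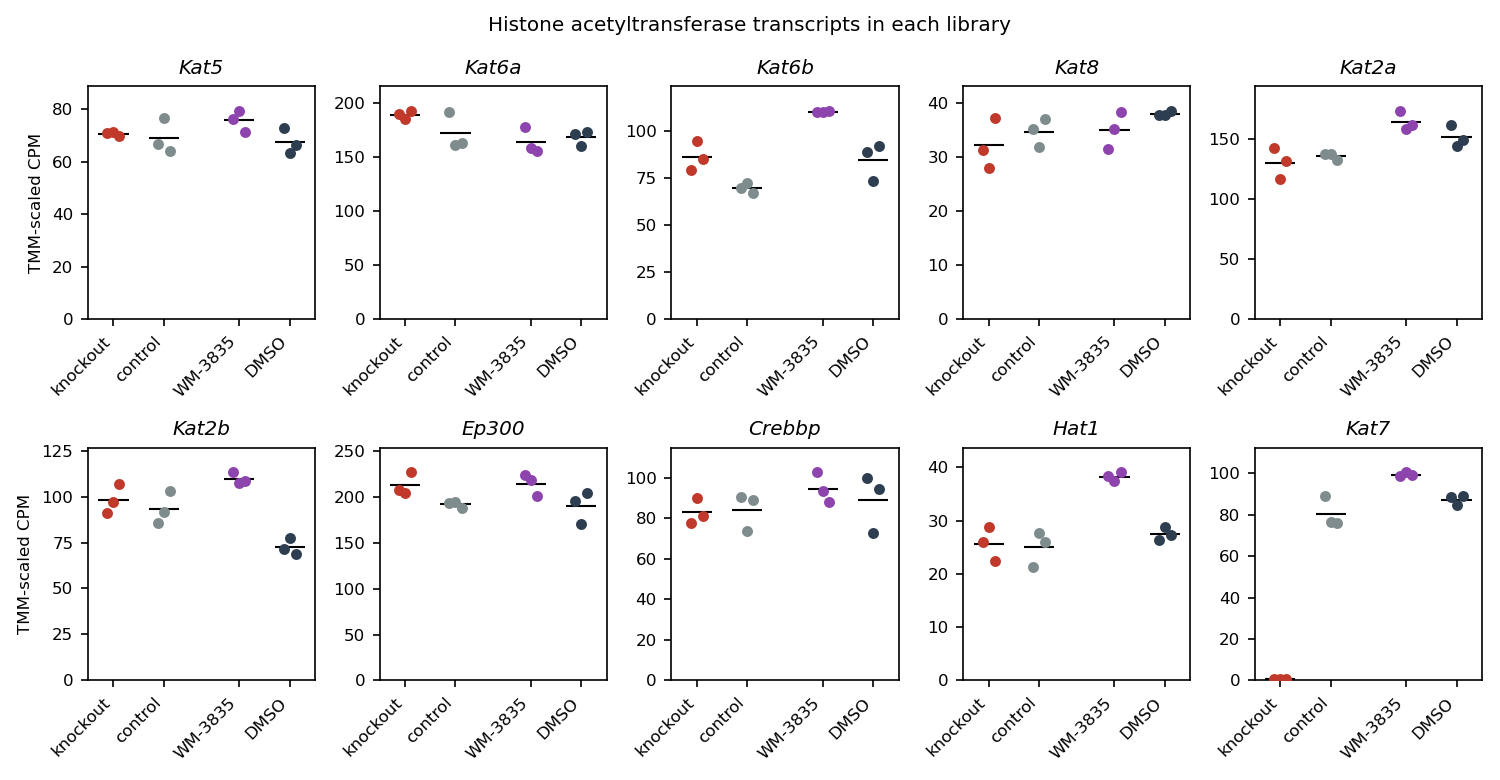
Transcripts of the 9 acetyltransferase genes and Kat7 in each of the 12 libraries, in TMM-scaled CPM; each dot is a library and each line a group mean. Kat6b lies at 79.2 to 94.6 CPM in knockout against 67.1 to 72.2 CPM in control libraries, and at 110.2 to 110.8 CPM with WM-3835 against 73.4 to 92.4 CPM with DMSO.

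Kat6b encodes MORF, a MYST enzyme that is built into complexes with BRPF scaffolds (Entrez ID 54169, chromosome 14, 21499216 to 21672478 on mm10). Its transcripts stood at 79.2, 94.6 and 85.3 CPM in knockout libraries and 69.7, 72.2 and 67.1 CPM in control libraries. All 3 knockout libraries lay above all 3 controls, an arrangement (in either direction) seen in 25.7% of the genes tested. The log2 fold change was 0.31 (SE 0.09, 95% interval 0.12 to 0.50, adjusted p = 0.0306). Knockout library 3, in which Xist is near its level in the controls, stood at 85.3 CPM, above each control, but is a single library. With Xist as a covariate the log2 fold change was 0.29. Xist was high in knockout libraries 1 and 2 and low in all controls, so it goes largely with this comparison. Its part in the level of Kat6b cannot be told apart from that of the knockout. Over the genes together, the controls varied more among themselves than any other group, with a chi-square per gene of 44.4 to 54.1 between pairs, against 9.07 to 23.5 within the other 3 groups. For Kat6b itself this was not so: its SD was 3.69% of the mean in control and 9.01% in knockout libraries. The call was lost without control 3 (adjusted p = 0.0566), without knockout 2 (0.120) and without knockout 3 (0.0555), with Xist as a covariate (0.303), and in 4 other of the 18 alternatives tried, whose log2 fold changes ran from 0.25 to 0.38 and adjusted p from 0.0167 to 0.303.

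Gene length moved with the knockout effect. Among genes as abundant as these acetyltransferases, those of 6000 bases or more had a median log2 fold change of 0.10 and 17.4% were called higher, while those under 2000 bases had a median of 0.02 and 6.53% were called higher. Kat6b, at 7337 bases, belongs to the long ones, and 13.3% of genes of like length and abundance had a larger rise. With the length trend of each library removed its log2 fold change was 0.25 (adjusted p = 0.0593). Fibroblast markers, 4 of 7 of which were called lower in the knockout, moved in the same comparison, and so did 4 of 9 TEC markers, also lower. Their part in the level of Kat6b was not tested, and fewer cells of a type and less RNA per cell cannot be told apart in sorted bulk samples.

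Kat6a, the paralog of Kat6b (MOZ; Entrez ID 244349, chromosome 8, 22859442 to 22943259), did not pass. It stood at 189.8, 185 and 193 CPM in knockout libraries and 191, 161 and 163 CPM in control libraries, with control 1 as high as the knockouts. The log2 fold change was 0.14 (95% interval -0.03 to 0.30, adjusted p = 0.277). Kat5, the catalytic subunit of the TIP60 complex (Entrez ID 81601, chromosome 19, 5603014 to 5611556), ranged from 69.8 to 71.5 CPM in knockout and 64.1 to 76.6 CPM in control libraries (log2 fold change 0.03, interval -0.15 to 0.22). Kat8, the acetyltransferase of the MSL and NSL complexes (Entrez ID 67773, chromosome 7, 127912517 to 127925838), ranged from 27.98 to 37.2 CPM in knockout and 31.8 to 37.1 CPM in control libraries (log2 fold change -0.11, interval -0.36 to 0.14). The 2 groups overlapped for each of these 3 genes, and the intervals allow changes of up to 1.23-fold for Kat6a, 1.16-fold for Kat5 and 1.10-fold for Kat8 upwards.

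The coactivator enzymes did not pass in the knockout either. Kat2a (Entrez ID 14534, chromosome 11, 100704746 to 100712485) stood at 142.5, 117 and 131 CPM in knockout and 138, 137 and 133 CPM in control libraries (log2 fold change -0.06, interval -0.23 to 0.10, adjusted p = 0.669). Kat2b, the gene of PCAF (Entrez ID 18519, chromosome 17, 53566774 to 53672721), stood at 91.0, 96.9 and 107 CPM in knockout and 85.4, 91.5 and 103 CPM in control libraries (log2 fold change 0.08, interval -0.11 to 0.26, adjusted p = 0.622). For both, the knockout libraries overlapped the controls. Ep300, the gene of p300 (Entrez ID 328572, chromosome 15, 81586209 to 81652077), stood at 207, 204 and 227 CPM in knockout and 194, 195 and 188 CPM in control libraries. Its groups did not overlap, but the log2 fold change of 0.15 missed the threshold (SE 0.08, interval -0.02 to 0.31, adjusted p = 0.231). Crebbp, the gene of CBP (Entrez ID 12914, chromosome 16, 4081334 to 4213957), ranged from 77.7 to 89.9 CPM in knockout and 73.6 to 90.4 CPM in control libraries (log2 fold change -0.03, interval -0.26 to 0.21).

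Hat1 (Entrez ID 107435, chromosome 2, 71389260 to 71441622) stood at 25.9, 28.8 and 22.4 CPM in knockout and 21.3, 27.7 and 25.9 CPM in control libraries. The groups overlapped, with a log2 fold change of 0.04 (SE 0.13, interval -0.23 to 0.30, adjusted p = 0.876).

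Set against what was lost, the rise of Kat6b was small in transcripts per length. Kat7 supplied 0.156% ± 0.0254 of the summed TPM of the 5 MYST genes in the knockout and 14.6% ± 0.925 in controls. Kat7 fell by 31.6 TPM in the knockout, while Kat6b was higher by 5.51 TPM. The summed level of all 5 genes was 195 ± 7.03 TPM in knockout cultures and 218 ± 3.66 TPM in control cultures, and no knockout library reached a control. Without Kat7, the other 4 summed to 194 ± 6.99 TPM in the knockout and 186 ± 1.09 TPM in the controls, and every knockout library (189 to 202 TPM) lay above every control (185 to 187 TPM). Groups did not overlap, in CPM, for 25.7% of single genes tested, and of these 4 genes only Kat6b was called. Over all 9 acetyltransferase genes the sums were 468 ± 10.1 TPM in the knockout and 455 ± 8.50 TPM in the controls, and these overlapped. The sums are given as a description, since they rest on the same libraries and largely on genes that did not pass.

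**Figure D2:**
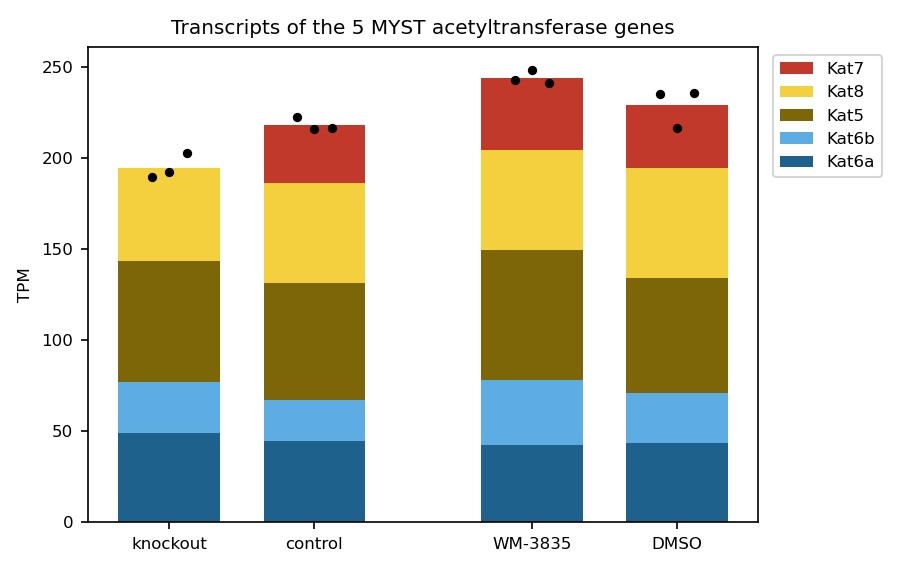
Mean TPM of the 5 MYST acetyltransferase genes stacked by gene, with each library's sum as a dot. The Kat7 share is nearly absent in the knockout, whose sums lie at 189 to 203 TPM against 216 to 222 TPM in control, while with WM-3835 they lie at 241 to 248 TPM against 216 to 235 TPM with DMSO.

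The inhibitor comparison puts the same question to wild-type cultures in which the Kat7 gene is intact. With WM-3835, 3 of the 9 acetyltransferase genes rose relative to DMSO: Kat2b 1.51-fold, Hat1 1.39-fold and Kat6b 1.30-fold. None was lower by edgeR, DESeq2 or limma-voom, nor at an unadjusted p under 0.05. Across all genes tested 18.7% were called, 9.34% higher and 9.35% lower, and among genes as abundant as these 9 the share called higher was 15.7%. Kat7 itself stood at 98.5, 100.4 and 99.3 CPM with WM-3835 and 88.4, 84.6 and 88.9 CPM with DMSO, a log2 fold change of 0.19 that did not pass (SE 0.09, adjusted p = 0.159).

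Kat2b had the largest rise of the 9 genes. It stood at 113, 107 and 108 CPM with WM-3835 and 71.3, 77.3 and 68.9 CPM with DMSO, with a wide gap between the groups. The log2 fold change was 0.60 (SE 0.09, 95% interval 0.41 to 0.78, adjusted p = 7.95e-05), and 4.64% of genes of like length and abundance rose more. In TPM it gained 18.7. The call held in all 17 alternatives, with log2 fold changes of 0.55 to 0.64. The DMSO libraries were also below the tamoxifen controls, which lay at 85.4 to 103 CPM, so the WM-3835 libraries exceed those by less than they exceed DMSO.

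Hat1 stood at 38.4, 37.4 and 39.0 CPM with WM-3835 and 26.4, 28.8 and 27.3 CPM with DMSO. All WM-3835 libraries were higher, and the other 3 groups lay together between 21.3 and 28.8 CPM. The log2 fold change was 0.48 (SE 0.13, interval 0.21 to 0.74, adjusted p = 0.0110). The call was lost without DMSO 1 (adjusted p = 0.0573) and without DMSO 3 (0.0504), where the log2 fold changes were 0.45 and 0.47, and it held in the other 15 alternatives (adjusted p from 4.78e-05 to 0.0573 over all 17).

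Kat6b stood at 110.2, 110.3 and 110.8 CPM with WM-3835, nearly the same value in each library, and 88.9, 73.4 and 92.4 CPM with DMSO. The SD with WM-3835, 0.283% of the mean, is below the 1.56% that counting error alone gives, so it understates the precision limit. DMSO library 2, the shallowest of the 12, was the lowest of its group for Kat6b, and also for Kat5, Kat6a, Kat2a, Ep300 and Crebbp, while it was the highest for Kat2b and Hat1. The log2 fold change was 0.38 (SE 0.09, interval 0.19 to 0.57, adjusted p = 0.00614), and it was called in all 17 alternatives, at 0.28 to 0.44. Without DMSO 2 the log2 fold change was 0.28 (adjusted p = 0.0471; range over the alternatives 0.000201 to 0.0471). The groups did not overlap for Kat6b, Kat2b or Hat1, and they did not overlap for 46.1% of all genes tested.

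The other 6 genes did not pass with WM-3835. Ep300 stood at 224, 218 and 201 CPM with WM-3835 and 196, 171 and 204 CPM with DMSO (log2 fold change 0.17, interval 0.01 to 0.33, adjusted p = 0.135 by edgeR, which was 0.0367 unadjusted). Kat5 ranged from 71.4 to 79.4 CPM with WM-3835 and 63.4 to 72.8 CPM with DMSO (log2 fold change 0.16, interval -0.02 to 0.35, adjusted p = 0.228). In both cases 1 WM-3835 library lay within the DMSO range. Kat2a ranged from 158 to 173 CPM with WM-3835 and 144 to 162 CPM with DMSO (0.11, interval -0.05 to 0.28). Crebbp ranged from 88.2 to 103 CPM with WM-3835 and 72.6 to 99.7 CPM with DMSO (0.09, interval -0.15 to 0.32). Kat6a ranged from 155 to 178 CPM with WM-3835 and 161 to 174 CPM with DMSO (-0.04, interval -0.21 to 0.13), and Kat8 from 31.4 to 38.4 CPM with WM-3835 and 37.7 to 38.5 CPM with DMSO (-0.12, interval -0.37 to 0.13). These 4 overlapped between the groups, and for Kat6a the interval excludes a rise above 1.09-fold.

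**Figure D3:**
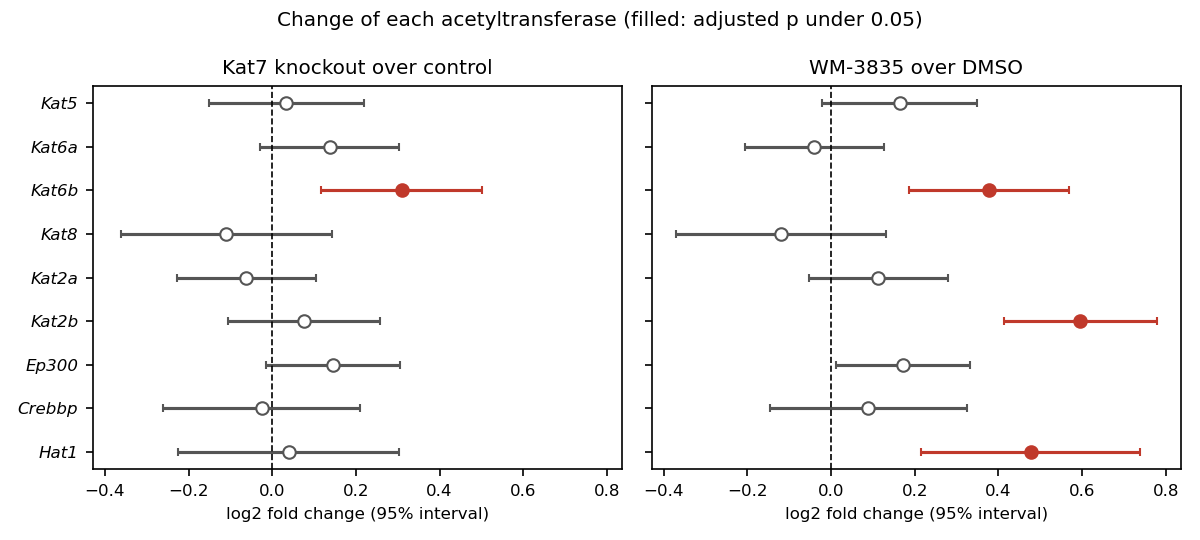
log2 fold changes of the 9 acetyltransferase genes with 95% intervals, knockout over control on the left and WM-3835 over DMSO on the right; filled points passed an adjusted p under 0.05. Kat6b alone is filled on the left, at 0.31, and Kat6b, Kat2b and Hat1 are filled on the right, at 0.38, 0.60 and 0.48.

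TEC markers summed to 7222 to 8196 CPM with WM-3835 and 8705 to 10298 CPM with DMSO, and 5 of the 9 were called lower and 1 higher. Of the 7 fibroblast markers 3 were called lower and 1 higher. The part of either in the 3 rises was not tested.

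Whether deletion and inhibition had unequal effects was tested directly, as the knockout effect minus the inhibitor effect. Of the 9 genes only Kat2b passed, and 10.1% of all genes did, 4.41% in the positive and 5.69% in the negative direction. For Kat2b the difference was -0.52 on the log2 scale (SE 0.12, interval -0.78 to -0.26, adjusted p = 0.00975), from effects of 0.08 in the knockout and 0.60 with WM-3835. Its knockout libraries lay with their controls, whereas its WM-3835 libraries lay well above DMSO. The call was lost with Xist as a covariate, at -0.38 (adjusted p = 0.210, range over the 22 alternatives 0.00193 to 0.210), and held in the other 21. For Hat1 the difference was -0.44 (interval -0.81 to -0.07) and did not pass (adjusted p = 0.133). For Kat6b it was -0.07 (interval -0.34 to 0.20, adjusted p = 0.824), so its effects of 0.31 and 0.38 were not told apart. The comparison sets a tamoxifen experiment beside a DMSO experiment, and differences between these experiments other than KAT7 cannot be told apart from it.

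**Figure D4:**
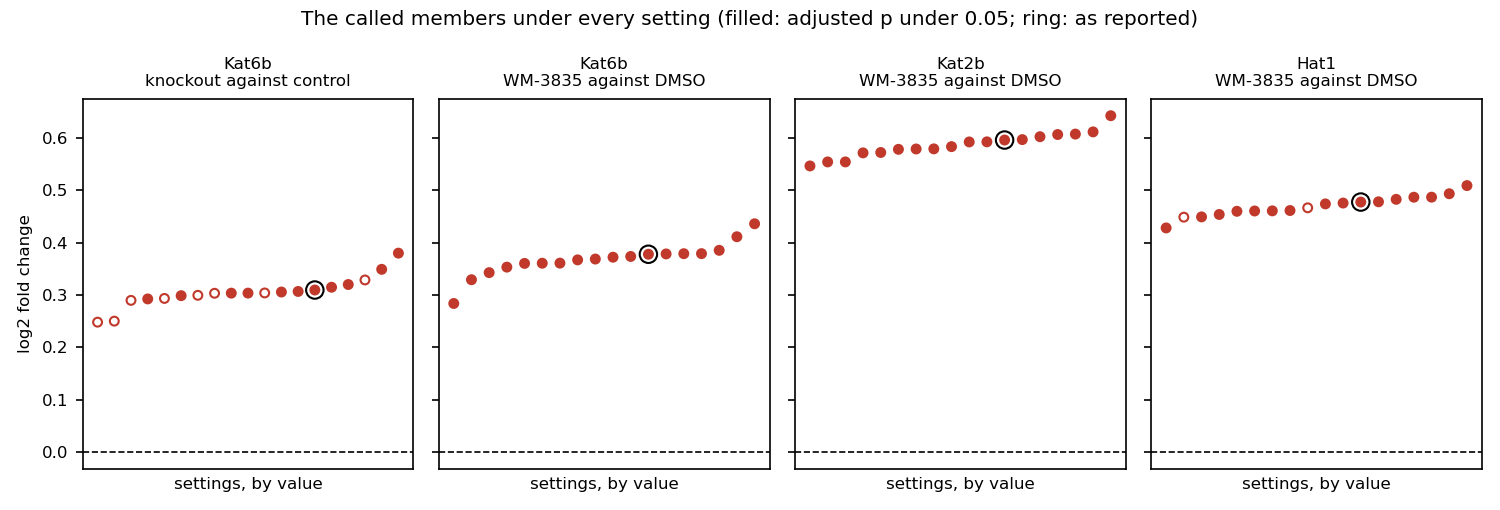
log2 fold changes of the 4 calls among the acetyltransferase genes under every setting, sorted by value; filled points passed an adjusted p under 0.05 and the ring marks the reported value. Kat6b in the knockout passed in 10 of 18 alternatives, Kat6b and Kat2b with WM-3835 in all 17, and Hat1 in 15 of 17.

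The reference cultures themselves differed. In DMSO wild-type against tamoxifen control cultures, Kat6b was higher with DMSO (84.9 ± 10.1 CPM against 69.7 ± 2.57 CPM, log2 fold change 0.29, SE 0.09, adjusted p = 0.0274) and Kat2b was lower (72.5 ± 4.34 CPM against 93.3 ± 8.87 CPM, log2 fold change -0.36, SE 0.09, adjusted p = 0.00447). The other 7 genes did not pass, and 24.6% of all genes were called, 11.4% higher and 13.3% lower. The libraries of Kat6b, Kat2b, Kat8 and Kat2a did not overlap between DMSO and control, as for 38.9% of all genes. The Kat6b call was lost without control 3 (adjusted p = 0.0523), DMSO 1 (0.1002) or DMSO 3 (0.127), and both calls with Xist as a covariate (0.497 for Kat6b and 0.670 for Kat2b). With that covariate the log2 fold changes were 0.26 for Kat6b and -0.16 for Kat2b. Xist was low in every control and high in every DMSO library, so this fit could hardly separate Xist from the group. Kat6b libraries of the DMSO cultures, where Kat7 is intact, overlapped those of the knockout, at 86.4 ± 7.78 CPM. The DMSO and control groups differ in treatment, in how their genotype is labelled and in Xist together, and which of these goes with the difference cannot be told apart. This comparison shares its control libraries with the knockout comparison and its DMSO libraries with the inhibitor comparison, so the values are set side by side and are not independent.

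Ratios of paralogs within a library do not depend on how libraries are scaled. The Kat6a to Kat6b ratio of counts was 0.57 ± 0.11 on the log2 scale with WM-3835 and 1.00 ± 0.12 with DMSO, and 1.13 ± 0.15 in the knockout and 1.30 ± 0.15 in controls. The Kat2a to Kat2b ratio was 0.59 ± 0.03 with WM-3835 and 1.07 ± 0.15 with DMSO, and 0.40 ± 0.21 in the knockout and 0.55 ± 0.16 in controls. Both ratios were shifted toward the second gene of the pair with WM-3835, by -0.43 and -0.48, without overlap of the groups. The exact permutation test, two-sided, gave p = 0.1 for each, the smallest that 3 against 3 libraries allow, and 0.3 after adjustment over the 6 ratios compared. The knockout shifts of -0.16 and -0.14 lay within overlapping groups (exact permutation p = 0.3 each, 0.36 adjusted). For Ep300 to Crebbp the shifts were 0.17 in the knockout and 0.07 with WM-3835 (exact permutation p = 0.2 and 0.5, or 0.36 and 0.5 adjusted).

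Subunits and partners of these enzymes were counted from 8 lists of 80 genes in all. In the knockout 10 of the 80 were higher and 1 was lower, with a median log2 fold change of 0.10, where all tested genes had a median of -0.01. The share called higher was 6.12% of all genes and 10.9% of genes as abundant as the acetyltransferases, near the share of the 80. With WM-3835 16 were higher and 1 lower, again with a median of 0.10 against -0.01. There the share called higher was 9.34% of all genes and 15.7% of those as abundant. Among those as abundant it was 11.98% under 2000 bases and 18.95% at 6000 bases or more. The 80 genes were not matched to these by length. With the gene-length trend removed, 6 were higher and 2 lower in the knockout. Without knockout 2 the knockout count was 6 higher, without control 3 it was 3 lower, and the inhibitor count was 9 or 10 higher when any library of that comparison was left out. Calls over all genes fell as well. In the knockout they were 2646 as reported and 1773 without knockout 2. With WM-3835 they were 3490 as reported and 2393 to 2689 with a library of that comparison left out.

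The scaffolds and small subunits that KAT6A, KAT6B and KAT7 share made a list of 5 genes. Brpf3, a BRPF scaffold, was the only one called in the knockout, at 124 ± 10.2 CPM against 98.6 ± 7.95 CPM in control (log2 fold change 0.33, SE 0.08, adjusted p = 0.0129). The call of Brpf3 held in 13 of 18 alternatives. Of the fits that left out a library, it was lost only without knockout 2 (adjusted p = 0.0647). All 5 genes had positive estimates in the knockout, with a median of 0.22. With WM-3835 the only call was Meaf6, a small subunit of these complexes, at 33.4, 35.1 and 33.8 CPM against 25.5, 20.9 and 22.4 CPM with DMSO (log2 fold change 0.57, SE 0.18, adjusted p = 0.0365). That call was lost without DMSO 2 or 3 and without any one WM-3835 library (adjusted p from 0.0846 to 0.142). Brpf3 was not called with the inhibitor (0.05), where its libraries stood at 141 to 149 CPM with WM-3835 and 127 to 146 CPM with DMSO.

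Of 15 TIP60 complex genes, Epc2, a scaffold that anchors the catalytic module, was called in the knockout, at 109, 119 and 107 CPM against 89.0, 77.3 and 91.0 CPM in control (log2 fold change 0.38, SE 0.08, adjusted p = 0.0042). Its call held in 16 of 18 alternatives. With WM-3835 4 were called, all higher. Trrap, the large platform shared by TIP60 and SAGA, stood at 356, 344 and 315 CPM with WM-3835 and 273, 227 and 275 CPM with DMSO (0.39, adjusted p = 0.00174). Ep400, the motor ATPase of the complex, rose by 0.45 (adjusted p = 0.00253), and Brd8, its bromodomain subunit, by 0.30 (adjusted p = 0.00596). These 3 held in all 17 alternatives, while Epc1, the relative of Epc2 at 0.25 (adjusted p = 0.0414), held in 4 of 17 and in none that left out a library (adjusted p from 0.0806 to 0.140).

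Of 12 genes of KAT8 complexes, 4 were called in the knockout, all higher. With the length trend removed, without control 2 or without knockout 2, 2 of the 4 passed. Phf20l1, a methyl-lysine reader related to the NSL subunit PHF20, stood at 187, 185 and 174 CPM in knockout libraries and 129, 133 and 147 CPM in control libraries (log2 fold change 0.42, SE 0.07, adjusted p = 0.00107). Msl3, the chromodomain subunit of MSL, rose by 0.35 (adjusted p = 0.0111), Msl2, its ubiquitin ligase, by 0.39 (0.0361), and Ogt, the enzyme that adds GlcNAc to proteins, by 0.22 (0.0336). Msl3 and Ogt are X-linked, so their comparison includes libraries that differ in Xist. The call of Phf20l1 held in 16 of 18 alternatives, that of Msl3 in 14, and those of Ogt and Msl2 in 9 each. Ogt was lost without control 2 or knockout 2 or 3 (adjusted p from 0.0639 to 0.111), and Msl2 without control 2 or 3 or knockout 1 or 2 (0.0509 to 0.113). With WM-3835 the 2 calls were other genes: Hcfc1, a host cell factor bound by OGT, at 0.40 (adjusted p = 0.000868), and Kansl3, an NSL subunit, at 0.31 (adjusted p = 0.00661). Phf20l1 was not called with the inhibitor (-0.17), and the difference between its effects was, at 0.59 (SE 0.11, adjusted p = 0.00116).

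In the SAGA and ATAC list of 22 genes, Atxn7, which ties the deubiquitinase module to SAGA, was called in both comparisons. It stood at 109 ± 1.06 CPM in the knockout and 92.1 ± 2.52 CPM in control (log2 fold change 0.25, adjusted p = 0.0228), and at 138.5 ± 1.53 CPM with WM-3835 and 113 ± 6.08 CPM with DMSO (0.29, adjusted p = 0.00516). The inhibitor call held in all 17 alternatives and the knockout call in 12 of 18. The knockout call was lost without knockout 3 (adjusted p = 0.0517), with the length trend removed (0.0803), in the 6 libraries alone (0.131), with quality weights (0.132), with knockout 3 alone (0.152) and with Xist as a covariate (0.203). Usp22, the deubiquitinase itself, was called with WM-3835 (0.26, adjusted p = 0.0374), in 8 of 17 alternatives and in none that left out a library (adjusted p from 0.0576 to 0.164). The others of the list did not pass, with list medians of 0.15 in the knockout and 0.04 with WM-3835.

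Among 9 partners and inhibitors of p300 and CBP, 3 were called in the knockout, all higher: Ncoa1, Ncoa2 and Ncoa3, which are p160 coactivators. The other 6 did not pass, 2 of them lower at an unadjusted p under 0.05, and the median of the list was -0.02. Ncoa3 stood at 122, 113 and 133 CPM in knockout and 91.7, 86.8 and 88.7 CPM in control libraries (log2 fold change 0.46, SE 0.08, adjusted p = 0.000858), and at 123, 121 and 117 CPM with WM-3835 and 90.2, 82.4 and 95.4 CPM with DMSO (0.43, SE 0.08, adjusted p = 0.000777). It was the one partner gene of the 11 called in the knockout that passed in all 18 alternatives, and the difference between its effects was 0.03 (SE 0.11, adjusted p = 0.921). Ncoa2 (0.31, adjusted p = 0.00575) and Ncoa1 (0.28, adjusted p = 0.0445, called in 7 of 18 alternatives, and lost without control 1 or 2 or knockout 1 or 2, at 0.0507 to 0.169) were also higher in the knockout. Cited2, which competes with hypoxia factors for p300 and CBP, rose with WM-3835 relative to DMSO, at 141, 115 and 121 CPM against 67.4, 49.8 and 57.8 CPM (log2 fold change 1.10, SE 0.14, adjusted p = 1.94e-05). Its tamoxifen groups were both high, at 126 ± 14.1 CPM in the knockout and 154 ± 35.5 CPM in control, so that DMSO cultures stood apart from the other 3 groups, by -1.40 against control (SE 0.14, adjusted p = 7.88e-07).

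HAT1 partners and histone chaperones held 7 genes, none of them called in the knockout by edgeR, DESeq2 or limma-voom, nor at an unadjusted p under 0.05. With WM-3835 2 were called higher and 1 lower. Chaf1b and Chaf1a, subunits of chromatin assembly factor, were higher by 0.85 (adjusted p = 0.0245) and 0.48 (0.0394) on the log2 scale. Asf1a, a chaperone that hands over newly made H3 and H4, fell by 0.39 on the log2 scale (adjusted p = 0.0213), to 27.5 ± 1.99 CPM with WM-3835, against 35.9 ± 0.989 CPM with DMSO. Neither Chaf1b nor Chaf1a passed when any one of the 6 libraries was left out (adjusted p from 0.0527 to 0.0989 and from 0.0785 to 0.133), and Asf1a was lost without DMSO 1 or 2 or WM-3835 1 or 3 (0.057 to 0.115).

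Acetyl-CoA for these enzymes comes in the nucleus from ATP citrate lyase and acetyl-CoA synthetase. Acly, the lyase, stood at 207, 212 and 214 CPM with WM-3835 and 145, 129.9 and 145 CPM with DMSO (log2 fold change 0.59, SE 0.08, adjusted p = 2.20e-05), and DMSO was the lowest of the 4 groups, as for Kat2b and Cited2. In the knockout Acly was not called (-0.08), and the difference between its effects passed (-0.67, SE 0.11, adjusted p = 0.000445), as did that of Cited2 (-1.40, adjusted p = 0.000136). Acss2, the synthetase, stood at 19.0, 28.5 and 25.6 CPM in knockout and 39.5, 37.4 and 31.9 CPM in control libraries (log2 fold change -0.58, SE 0.14, adjusted p = 0.0111). The call of Acss2 held in 14 of 18 alternatives. Of the fits that left out a library, it was lost only without knockout 1 (adjusted p = 0.0619). Among 7 other acetyltransferases reported to act on histones, none was called in the knockout by edgeR, DESeq2 or limma-voom, with 1 at an unadjusted p under 0.05. With WM-3835 Taf1, a subunit of TFIID, and Naa40, which acetylates the amino termini of H4 and H2A, were called at 0.27 each (adjusted p = 0.0138 and 0.0436). Taf1 was lost without DMSO 1 or 2 or WM-3835 1 or 3 (adjusted p from 0.0575 to 0.0689), and Naa40 without any one library but WM-3835 3 (0.0794 to 0.195).

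**Figure D5:**
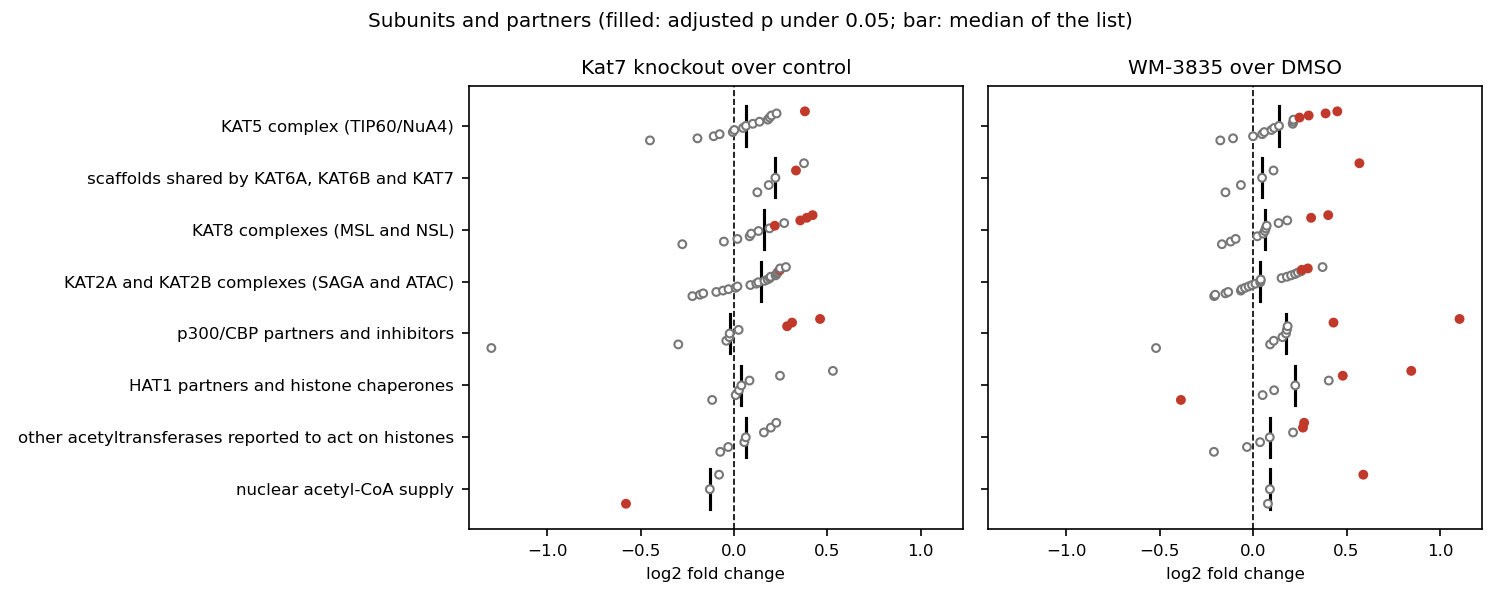
log2 fold changes of the 80 subunit and partner genes by list, knockout over control on the left and WM-3835 over DMSO on the right; filled points passed an adjusted p under 0.05 and bars are list medians. Most filled points lie right of 0, with Acss2 at -0.58 on the left and Asf1a at -0.39 on the right as the exceptions, and Cited2 is farthest out at 1.10.

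The genes whose pattern over the 12 libraries came closest to each acetyltransferase were found by the root-mean-square difference of centred log2 CPM, among 13315 genes. For Kat2b these were Dtx3l (0.0426) and Parp12 (0.0577), where Kat2b itself varied by 0.234 around its mean. For Kat6b they were Pcnx3 (0.0655) and Bap1 (0.0839), against a variation of 0.253. For Hat1 they were Tbce (0.0684) and Slc4a3 (0.0944), against 0.273. The 6 other genes varied less, by 0.0986 to 0.155. The nearest to them were Rnf114 and Ylpm1 for Kat5, Arih1 and Zfp664 for Kat6a, Zfp180 and Letm1 for Kat8, Bop1 and Pcbp2 for Kat2a, Prrc2c and Kmt2b for Ep300, and Atp11a and Rnf214 for Crebbp.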

How the data were processed

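Libraries were made from RNA of sorted TECs with a kit that does not mark strand and read as 75-base pairs, per the labels' protocols. The deposited values are raw counts per gene, with Entrez ID, symbol and gene length, per the file headers; the authors used featureCounts and the mm10 build, per the submitters' processing notes. Which aligner, annotation and strand setting were used is not given in the sources used here. Of 27179 genes, 1312 without a symbol, holding 0.657% to 0.743% of each library's counts, were left out. Without strand, reads of overlapping genes cannot be told apart: Kat5 exons overlap Rnaseh2c over 12.1% of their length, Kat8 exons overlap Prss8 over 4.22%, and Ep300 exons hold the small Gm23880.

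The test on the counts was that of edgeR 4.0.16 (R 4.3.3): TMM scaling, filterByExpr (18670 genes left), and a quasi-likelihood fit of 4 group means to all 12 libraries, two-sided, with Benjamini-Hochberg adjustment over all genes and a threshold of 0.05. The 95% intervals are from the same fit. CPM values are TMM-scaled, and TPM values use the deposited lengths. Genes as abundant as the 9 acetyltransferases are those with a mean log2 CPM within the range of the 9, and genes of like length lie within 0.8 to 1.25 times a gene's length. The 9 genes, the 8 lists and the tests were chosen with earlier results of these data known. Of each list, up to 4 called genes with the smallest adjusted p are named per comparison. The script was tested on simulated data. Alternatives were DESeq2 1.42.0, limma-voom 3.58.1 (also with quality weights), scaling by RLE or the upper quartile, other filters, a replicate block, Xist as a covariate, fits of 6 libraries, leaving out each library, and, chosen after seeing the data, removal of a gene-length trend.

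Control pairs had a chi-square per gene of 44.4 to 54.1 and pairs of the other groups 9.07 to 23.5, where counting error alone gives about 1. In control 1, the ribosomal precursor Rn45s held 0.664% of counts, against 0.165% to 0.265% elsewhere. No library was counted as a duplicate. Replicate spread was above counting error over the genes together, though not for every gene in every group, as for Kat6b with WM-3835.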

Additional observations from a re-analysis of the deposited data

Results flagged for a closer look

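Kat2b was the only acetyltransferase gene whose knockout and inhibitor effects differed by a test of the difference itself. The knockout effect minus the inhibitor effect was -0.52 on the log2 scale (edgeR's quasi-likelihood test, adjusted p = 0.00975), from 98.3 ± 8.11 CPM in knockout and 93.3 ± 8.87 CPM in control cultures, and 109.5 ± 3.20 CPM with WM-3835 and 72.5 ± 4.34 CPM with DMSO. All 3 WM-3835 libraries were above DMSO, whereas the knockout libraries overlapped the controls. DMSO cultures were the lowest of the 4 groups for Kat2b, and the part of this in the difference was not tested.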

How the results depend on the processing

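Acetyltransferase genes higher with WM-3835 were 2 without DMSO 1 or 3, 4 with quality weights and 3 in the other alternatives. In the knockout the count of 1 higher was 0 with quality weights, Xist as a covariate, a fit of 6 libraries, knockout 3 as the only knockout or the gene-length trend removed, and 0 to 1 with a library left out. Genes called in the knockout, 2646 as reported, were 1180 with quality weights, 480 with Xist, 1157 in 6 libraries and 704 with knockout 3 alone. With WM-3835 they were 3490 as reported, 6589 with quality weights and 6070 in 6 libraries; lower calls were 50.03% of them as reported and 60.1% with upper-quartile scaling. For the difference between effects they were 1887 as reported and 695 with Xist, and Kat2b was then no longer called (0). For DMSO against control they were 4600 as reported and 795 with Xist; members higher, 1 as reported, were 0 with quality weights, Xist and 6 libraries, and 0 to 1 with a library left out, and members lower were 0 with Xist.

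Partner genes higher and lower in the knockout, 10 and 1 as reported, were 1 and 0 with Xist and with knockout 3 alone, 6 and 2 with the length trend removed, and 6 to 14 and 0 to 3 with a library left out. With WM-3835, 16 and 1 as reported, they were 9 to 10 and 0 to 1 with a library left out, where calls over all genes were 2393 to 2689 against 3490 as reported. For the difference, 1 higher as reported, they were 3 with DESeq2, 2 with the replicate block and 1 to 3 with a library left out. For DMSO against control, 14 and 4 as reported, they were 0 and 1 with Xist, and 8 to 20 higher with a library left out.

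Estimates that changed sign were none of them called. In the knockout, Kat8 was 0.11 with Xist and with knockout 3 alone, and Hat1 was -0.17 and -0.15. The difference for Ep300 was 0.0044 with upper-quartile scaling, 0.0025 without a filter and 0.0755 with Xist. In DMSO against control Ep300 was 0.0108 without a filter and 0.13 with Xist, Crebbp -0.0032 and Hat1 -0.16 with Xist. With a library left out, knockout estimates ran from -0.10 to 0.0381 for Crebbp, -0.0537 to 0.14 for Hat1, -0.12 to 0.0216 for Kat2a and -0.0075 to 0.13 for Kat5, and the inhibitor estimate of Crebbp from -0.0370 to 0.18. Differences ran from -0.19 to 0.0216 for Crebbp, -0.0640 to 0.0545 for Ep300, -0.12 to 0.0357 for Kat6b and -0.10 to 0.12 for Kat8. In DMSO against control they ran from -0.00054 to 0.21 for Crebbp, -0.0520 to 0.0656 for Ep300, -0.0796 to 0.0658 for Kat5 and -0.0545 to 0.0716 for Kat6a. The causes of these shifts were not tested. With the replicate number as a block, Kat6b in the knockout was called (0.31, adjusted p = 0.0363), and 1 gene in the knockout and 3 with WM-3835 were called as before. Same-numbered libraries deviated together with correlations of 0.00218 to 0.00918 in the knockout comparison and 0.0032 to 0.0580 in the inhibitor comparison. Libraries of unlike number had -0.00889 to 0.00424 in the knockout comparison and -0.0561 to 0.0168 in the inhibitor comparison. The numbers were not taken as pairs, but low correlations over all tested genes cannot exclude pairing. The parts of replicate spread and of depth in the width of the intervals, at 3 libraries a group, were not tested.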
